A study of Mus musculus with 6 samples.

Results

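Abcb11, Slc22a8, Slc27a2, Ppargc1a and Prox1 are genes of hepatocyte transport and liver cell regulation, and their raw transcript counts were followed through every mouse section whose probe panel held them. They were chosen by name, as 5 of the 5294 genes measured over the 2 panels of the series. The smaller panel, of 477 genes, held all 5 and was used on E14.5 fetal liver, postnatal day 8 bone marrow and the untreated and phenylhydrazine-treated spleens. The larger panel, of 5050 genes, held Slc22a8, Ppargc1a and Prox1 and was used on E13.5 fetal liver and 89-week bone marrow.

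All samples came from wild-type mice, which the study's methods give as C57BL/6, and each was 1 formalin-fixed section of 5 µm read by Xenium, an in situ assay that decodes single RNA molecules at their place in the tissue. Phenylhydrazine (PHZ), which destroys red cells, was given at 40 mg/kg, 2 injections a day for 2 days; the other spleen was from an adult wild-type mouse and no vehicle-injected spleen was analysed here. The 89-week marrow was freed from bone by cryosectioning before embedding, a step that the other sections did not go through. With 1 section per condition there is no replicate, so no test was possible, and every interval below is an exact 95% interval that covers counting error only. The sections held 1384795 to 20952143 gene transcripts in 5285 to 143810 cells, with medians of 60 to 190 transcripts per cell. Sections shared 0 to 6 cell names in a pair.

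Hepatocytes take up substances from the blood, alter them and secrete many of them into bile. Abcb11 encodes the bile salt export pump of the canalicular membrane, Slc22a8 an organic anion transporter known mainly from the kidney, and Slc27a2 a protein that takes up fatty acids and joins very long chain fatty acids to coenzyme A. Ppargc1a encodes a coactivator of transcription that raises mitochondrial and fasting metabolism, and Prox1 a homeobox factor needed by liver progenitors and by lymphatic endothelium. In the fetus, hepatocyte precursors share the liver with a large mass of blood-forming cells.

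The sequence before the start of each transport gene is shown because these genes were at 20.4 to 68.4 CPM outside the liver on the smaller panel. The 250 bases before the start come from RefSeq (GRCm38.p6), read 5′ to 3′ on the gene's own strand. For Abcb11 this is chr2:69342617-69342866 on the minus strand, for Slc22a8 chr19:8592932-8593181 on the plus strand and for Slc27a2 chr2:126552774-126553023 on the plus strand. Capitals mark matches, on either strand, to the nuclear receptor half-site AGGTCA, the HNF1 half-site GTTAAT or the TATA box TATAAA.
Abcb11: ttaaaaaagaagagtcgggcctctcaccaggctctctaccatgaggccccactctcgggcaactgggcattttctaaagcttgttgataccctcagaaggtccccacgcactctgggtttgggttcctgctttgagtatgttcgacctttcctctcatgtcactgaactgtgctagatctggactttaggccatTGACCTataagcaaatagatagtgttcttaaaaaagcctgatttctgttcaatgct
Slc22a8: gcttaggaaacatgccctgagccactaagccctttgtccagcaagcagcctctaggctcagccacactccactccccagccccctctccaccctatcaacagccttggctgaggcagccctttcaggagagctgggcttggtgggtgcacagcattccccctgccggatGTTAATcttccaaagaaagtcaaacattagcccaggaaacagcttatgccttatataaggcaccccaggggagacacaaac
Slc27a2: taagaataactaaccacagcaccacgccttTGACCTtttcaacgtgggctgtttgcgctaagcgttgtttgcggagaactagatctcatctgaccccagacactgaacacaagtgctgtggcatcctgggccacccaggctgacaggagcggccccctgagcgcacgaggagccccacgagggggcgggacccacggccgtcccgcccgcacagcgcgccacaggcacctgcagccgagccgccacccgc
The Abcb11 window held the nuclear receptor half-site on the opposite strand, beginning 56 bases before the start, and the Slc27a2 window held it on the opposite strand, 220 bases before. Of 32851 mouse promoter windows of the same length, 14% held that half-site. The Slc22a8 window held the HNF1 half-site 81 bases before the start, as did 6.43% of windows at any position. TATAAA, held by 12.4% of windows, was in none of the 3. Only this exact run was searched, so other forms of a TATA box were not counted, such as the tatataag near the end of the Slc22a8 window. The Ppargc1a window and the first of the 2 Prox1 windows held none of the 3 motifs, and the other Prox1 window held TATAAA on the opposite strand. A match is only a run of letters; no binding was measured.

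Abcb11 had 11366 transcripts in cells of the E14.5 liver, against 164 in day 8 marrow, 258 in untreated spleen and 233 in PHZ-treated spleen. As counts per 1000000 gene transcripts of the section (CPM), this was 542 (interval 533 to 553) in the liver and 20.4 to 25.4 in the other sections. Slc22a8 was at 298 CPM in the E14.5 liver, from 6237 transcripts, and at 31.3 CPM in day 8 marrow, 22.0 in untreated spleen and 23.8 in PHZ-treated spleen. Both were thus far higher in the liver, by 21.3-fold over day 8 marrow for Abcb11 (18.3 to 25.0) and by 9.50-fold for Slc22a8 (8.26 to 11.0).

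Slc27a2 had the widest range, 8189 CPM from 171581 transcripts in the E14.5 liver against 48.3 CPM in untreated spleen, 65.6 in day 8 marrow and 68.4 in PHZ-treated spleen. Its level in the liver was 125-fold that in day 8 marrow (113 to 138). Prox1, at 1309 CPM in the E14.5 liver, fell to 303 in untreated spleen, 102 in day 8 marrow and 69.3 in PHZ-treated spleen. Ppargc1a had the narrowest range: 638 CPM in the E14.5 liver, 392 in untreated spleen, 208 in day 8 marrow and 82.9 in PHZ-treated spleen. All 5 genes were at least 2-fold higher in the E14.5 liver than in day 8 marrow, a difference that 15.9% of the panel's genes showed; these sections lay on 1 slide. Levels of different genes are not compared here, because probes differ in how well they are detected.

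**Figure D1:**
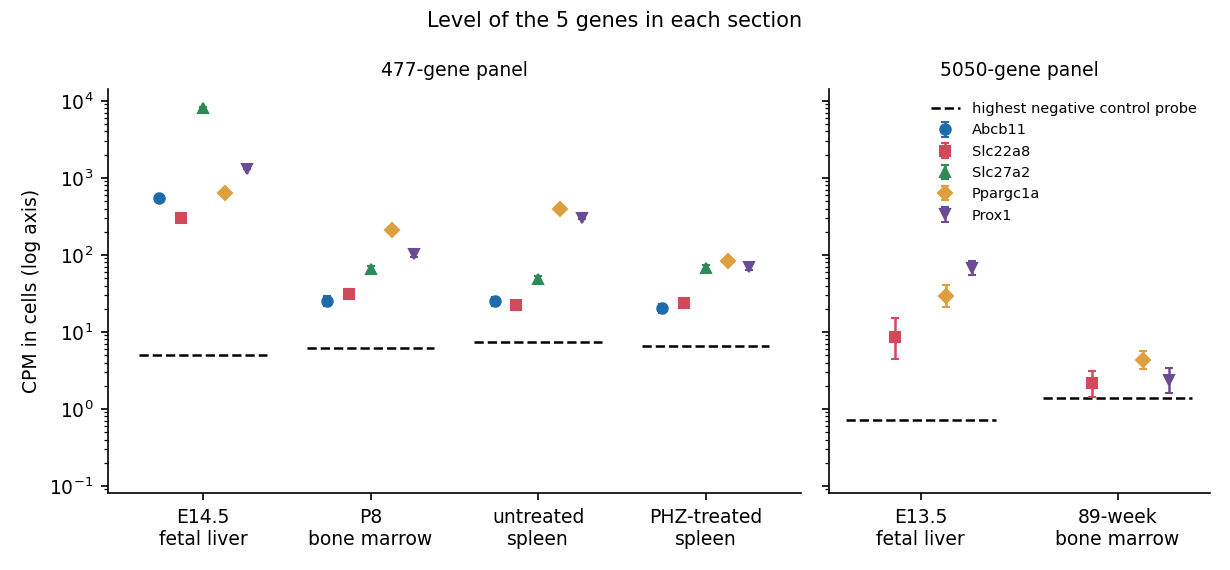
Level of each gene in each section, in CPM on a log axis, with exact 95% Poisson intervals and, as a dashed line, the highest negative control probe of the section. Abcb11, Slc22a8 and Slc27a2 stand high in the E14.5 liver (298 to 8189 CPM) and at 20.4 to 68.4 CPM in the other sections on the smaller panel. Ppargc1a goes from 638 CPM in the E14.5 liver to between 82.9 and 392 in those sections, and Prox1 from 1309 to between 69.3 and 303.

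Negative control probes, which match no transcript, gave the background. In the E14.5 liver the 20 probes had a median of 32.5 transcripts and a highest of 105, so that even Slc22a8 lay 59.4 times above the highest. In day 8 marrow (highest probe 40) the 5 genes lay 4.10 to 33.6 times above it, in untreated spleen (77) 2.96 to 52.7 times and in PHZ-treated spleen (76) 3.07 to 12.5 times. The lowest of these ratios belonged to Abcb11 in marrow and in PHZ-treated spleen and to Slc22a8 in untreated spleen. Passing the highest probe says little on its own, because 98.5% of all panel genes did so in the E14.5 liver, 98.7% in day 8 marrow, 98.5% in untreated spleen and 97.5% in PHZ-treated spleen.

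Decoding quality separated the sections further. Of all decoded Abcb11 molecules, 78.5% reached the quality score of 20 that the deposited counts require in the E14.5 liver, but 18.9% in day 8 marrow, 57.4% in untreated spleen and 32.5% in PHZ-treated spleen. The median panel gene was at 69.4%, 63.4%, 84.0% and 60.3% in the same order, and the summed control probes at 10.4%, 4.54%, 23.2% and 4.30%. Slc22a8 went from 79.9% in the liver to 40.5% in marrow, 56.2% in untreated spleen and 40.4% in PHZ-treated spleen. Outside the liver Abcb11 and Slc22a8 lay below the median gene and above the control probes. Slc27a2 stayed at 77.7% to 97.5% in the 4 sections, above the median gene in each, and Ppargc1a at 64.1% to 91.5%. Prox1, at 71.0% in the liver, was below the median gene outside it, at 62.4%, 76.6% and 53.2% in marrow, untreated and PHZ-treated spleen.

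Cells with more than 1 molecule were counted too; few can occur at the low levels outside the liver, and no expected number was computed. In the E14.5 liver 1525 of 9308 cells with Abcb11 held at least 2 molecules, with up to 6 in a cell. In untreated spleen 1 of 257 such cells held more than 1, in PHZ-treated spleen 1 of 232, and in day 8 marrow none of 164. Slc22a8 had more than 1 in 590 of 5530 cells in the liver, none of 228 in untreated spleen, 1 of 271 in PHZ-treated spleen and none of 202 in marrow.

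To ask which liver cells carried the genes, cells were scored on lists of cell type genes from which all 5 were left out. A score is the count of a list's transcripts over the number expected from the cell's total, and a cell was called gene-high for the list on which it scored highest, at 2 or more. In the E14.5 liver 13747 of 117323 cells (11.7%) were hepatocyte gene-high, led by Ambp, a plasma protein precursor that made up 26.9% of their list transcripts. The class is a range of a score and not a cell type: 13378 cells lay between 1.5 and 2.5, near the limit, against 16257 at 2 or above. Doublets were not called.

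All 5 genes were higher in hepatocyte gene-high cells than in the other 103576 cells of the E14.5 liver, by 5.62-fold to 7.10-fold. Abcb11 was at 2231 against 322 CPM, a ratio of 6.92 (6.67 to 7.18), and Slc22a8 at 1091 against 194 CPM, a ratio of 5.62 (5.34 to 5.91). Slc27a2 was at 30832 against 5239 CPM (ratio 5.89, 5.83 to 5.94). Ppargc1a was at 2661 against 375 CPM (7.10, 6.87 to 7.35), and Prox1 at 5265 against 794 CPM (6.63, 6.47 to 6.79). At least 2-fold higher was the state of 14.5% of the 477 genes, and the 5 ranked between 5 and 10 among them. With transcripts over the nucleus alone the ratios were 8.43 for Slc22a8 and between 10.5 and 12.3 for the others. The classes were set anew from those transcripts, so the cells compared were not the same.

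Within the class most cells held only some of the genes. Slc27a2 was found in 95.3% of hepatocyte gene-high cells, Prox1 in 51.1%, Ppargc1a in 33.4%, Abcb11 in 28.5% and Slc22a8 in 15.5%. Macrophage gene-high cells, which should lack the transporters, had the lowest level of each gene among classes of at least 500 cells: 22.1% held Slc27a2, 4.80% Prox1, 2.78% Ppargc1a, 2.24% Abcb11 and 1.68% Slc22a8. Over all cells outside the hepatocyte class the shares were 43.2% for Slc27a2, 11.3% for Prox1, 5.87% for Ppargc1a, 5.2% for Abcb11 and 3.28% for Slc22a8. The median depth of macrophage gene-high cells was 143 transcripts, against 164 in hepatocyte gene-high cells. With every cell thinned to 100 transcripts, which left out 2128 hepatocyte and 2540 macrophage gene-high cells, the shares were 92.5% against 17.2% for Slc27a2, 37.6% against 3.19% for Prox1, 22.4% against 1.59% for Ppargc1a, 19.0% against 1.57% for Abcb11 and 9.74% against 0.938% for Slc22a8. Thinned in the same way, all cells outside the class were at 32.9% for Slc27a2, 6.88% for Prox1, 3.39% for Ppargc1a, 2.97% for Abcb11 and 1.84% for Slc22a8.

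Macrophage gene-high cells were then taken as the reference for CPM, an alternative chosen after the values were seen. Abcb11 and Prox1 were each 14.2-fold higher in hepatocyte gene-high cells, Ppargc1a 13.8-fold, Slc27a2 12.2-fold and Slc22a8 9.64-fold, while negative control probes averaged 1.7 CPM each in hepatocyte and 3.40 in macrophage gene-high cells. Among the 9 classes of at least 500 cells, the hepatocyte list had the highest and the macrophage list the lowest CPM for every one of the 5 genes. The next highest levels for each gene lay in 880 cells that scored highest on the fat list, 76.4% of whose list transcripts were Car3, and in 906 cells led by the keratin gene Krt8; Ppargc1a was at 2128 and 1731 CPM in them and Abcb11 at 1747 and 641 CPM. The class name fat is not used for the former, since a single gene carried it.

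The genes rose step by step with the hepatocyte score. From cells scoring below 0.5 to those scoring 4 or more, Abcb11 went through 101, 290, 608, 2041 and 3104 CPM. Slc27a2 went through 1368, 4938, 10508, 28836 and 39516 CPM, and Prox1 through 262, 707, 1446, 5010 and 6560. Slc22a8 moved from 85.1 to 1518 CPM and Ppargc1a from 140 to 3328, also without a backward step. The intervals of neighbouring steps did not overlap for any of the 5 genes, while the median depth of the cells stayed within 159 to 183 transcripts.

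**Figure D2:**
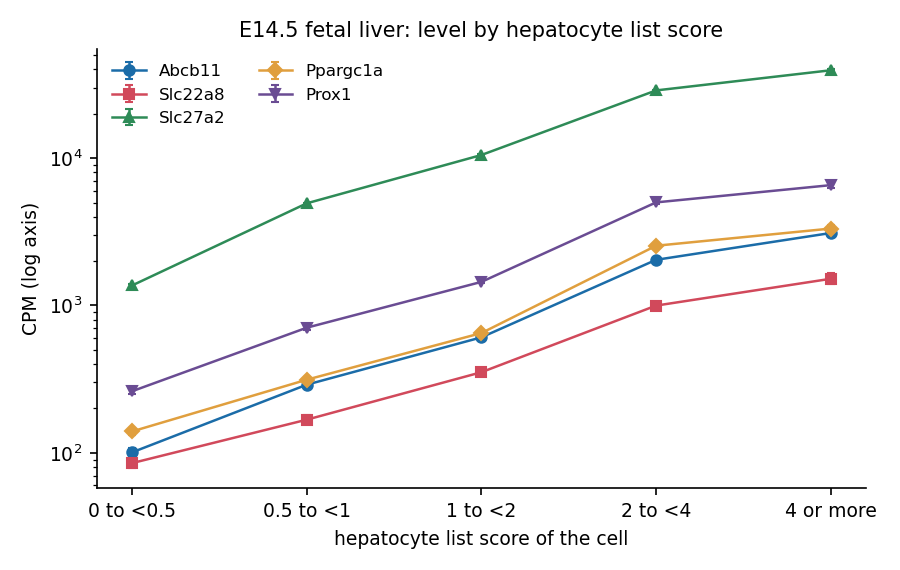
CPM of the 5 genes, on a log axis, in E14.5 liver cells grouped by hepatocyte list score, with exact 95% Poisson intervals. Every line climbs at each step, from 85.1 to 1368 CPM below a score of 0.5 to between 1518 and 39516 CPM at 4 or more.

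Much of each gene's signal nevertheless lay outside the class. Hepatocyte gene-high cells held 47.4% of the section's Abcb11 transcripts, 42.3% of Slc22a8, 43.4% of Slc27a2, 48.1% of Ppargc1a and 46.4% of Prox1. Cells of no class held another 27.3% to 35.0%. The erythroid list could not set cells apart in this section, where 2 cells passed it, and in which class red cell precursors fell was not tested.

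In cells with a hepatocyte score below 1, the genes' level moved with the number of hepatocyte gene-high cells within 15 µm. Slc27a2 was at 1715 CPM in the 27188 cells with no such neighbour, 2815 with 1, 3469 with 2 and 4003 with 3 or more. Prox1 followed the same order, from 307 to 591 CPM, and Slc22a8 from 90.9 to 155. Abcb11 was at 130, 187, 183 and 233 CPM in the same order, with no step up between 1 and 2 neighbours. Ppargc1a was at 190 and 193 CPM with 0 and 1, and at 228 and 243 with 2 and with 3 or more. The cells' own hepatocyte score moved alongside, with medians of 0.260, 0.387, 0.476 and 0.556. Whether transcripts of neighbouring cells were assigned to these cells was not tested.

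**Figure D3:**
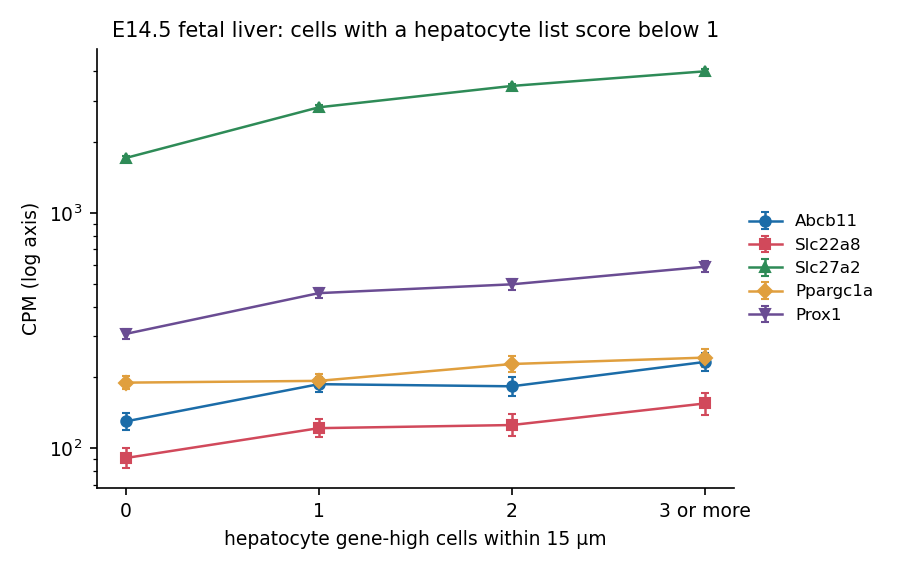
CPM of the 5 genes, on a log axis, in E14.5 liver cells with a hepatocyte list score below 1, by the number of hepatocyte gene-high cells within 15 µm, with exact 95% Poisson intervals. Slc27a2 goes from 1715 to 4003 CPM and Prox1 from 307 to 591, while Ppargc1a moves least, from 190 to 243.

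Co-detection asked whether the genes shared single cells beyond what depth alone gives. Among the 13747 hepatocyte gene-high cells, 3.03% held none of the 5 genes, 25.2% held 1, 32.1% held 2, 26.0% held 3, 11.6% held 4 and 1.96% (269 cells) held all 5. Of macrophage gene-high cells, which had the lowest levels, 73.0% held none, and 3 of 10963 held all 5. Over all 103576 cells outside the hepatocyte class 50.4% held none, 34.5% held 1, and 76 cells held all 5.

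The number of hepatocyte gene-high cells with both genes of a pair was set against the number expected if the genes were independent within deciles of the cell's total. All 10 pairs were above 1, with a median of 1.07 and a range of 1.01 to 1.14, and 5 had intervals above 1. These are Poisson intervals of the shared count and do not hold fixed how many cells carry each gene. They are therefore too wide where a gene is common, as Slc27a2 is, and do not tell which pairs depart from 1. Slc22a8 and Ppargc1a shared 939 cells where 827 were expected, a ratio of 1.14 (1.06 to 1.21). Abcb11 and Slc22a8 shared 769 where 688 were expected (1.12, 1.04 to 1.2), and Ppargc1a and Prox1 2986 where 2676 were expected (1.12, 1.08 to 1.16). Ppargc1a was found in 42.0% of cells with Abcb11 and in 30.03% of those without it, without regard to depth. The 4 pairs with Slc27a2 were at 1.01 to 1.02, and with that gene in 95.3% of cells little room was left above the expected number. Taken within deciles of the hepatocyte list count in place of depth, the median was 1.02 and 2 of the 10 intervals lay above 1. With transcripts over the nucleus alone the median was 1.12, and without strata 1.19, with 9 of 10 intervals above 1 in each.

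Over all cells of the section, with depth deciles, the pairs were far above 1, with a median of 2.07 (range 1.47 to 2.48). Abcb11 and Ppargc1a, the highest pair, shared 2477 cells where 999 were expected. When cells were compared only with cells of like hepatocyte list count, an alternative chosen after these values were seen, the median was 1.08 and the range 1.02 to 1.21, with 9 of 10 intervals above 1. Ppargc1a and Prox1 were then the highest pair, at 1.21 (1.17 to 1.24).

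**Figure D4:**
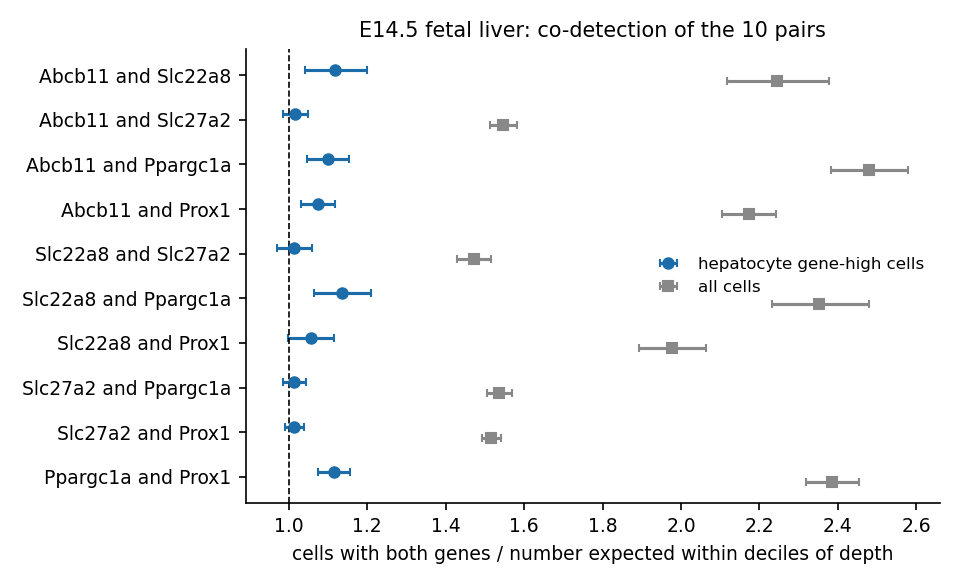
Cells that held both genes of a pair, over the number expected within deciles of depth, for the 10 pairs in E14.5 liver. Circles are hepatocyte gene-high cells and squares all cells, and the dashed line marks 1. Bars are 95% Poisson intervals of the shared count, which are too wide for common genes. The circles lie between 1.01 and 1.14 and the squares between 1.47 and 2.48.

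Across the tissue, the pattern of each gene was compared with 363 panel genes over 2704 squares of 50 µm, as Pearson correlations of log2(CPM + 100). Squares of 1 section share its gradients and neighbours, so the values are a description. Slc27a2 was most like Ambp (r = 0.88), the complement gene C3 (0.87) and the heme carrier Hpx (0.86). Prox1 was most like Serpina10, a plasma protease inhibitor (0.67), Slc27a2 (0.65) and the complement gene Hc (0.65). Abcb11 was most like Slc27a2 (0.55), Hpx (0.54) and Igfbp1 (0.53), and Slc22a8 most like the plasma protein genes Gc (0.41), Kng2 (0.40) and Apoc2 (0.37). Ppargc1a had Prox1 as its closest gene (0.52), before Serpina10 (0.49) and Serpinf1 (0.48). Among the 5 genes themselves r ran from 0.18 for Slc22a8 with Ppargc1a to 0.65 for Slc27a2 with Prox1. The genes differ in abundance, from 6237 transcripts of Slc22a8 to 171581 of Slc27a2. How far counting noise lowers r for the rarer genes was not tested, so r is not compared between genes.

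Genes of further lists did not all behave alike in hepatocyte gene-high cells. The lists cover membrane transport, fatty acid use and fasting metabolism, and liver transcription factors. They were chosen with earlier results of these data known. Of 7 further genes of a membrane transport list on the smaller panel, 2 were at least 2-fold higher and none 2-fold lower, with a median ratio of 1.21 against 0.680 over all genes. Slc10a1, which takes bile salts up from the blood, was at 383 against 70.9 CPM (ratio 5.41), and the bicarbonate transporter gene Slc4a4 at 830 against 193 CPM (4.31). Slc22a6, another organic anion transporter gene, was at 14.5 against 11.5 CPM, a ratio of 1.26 whose interval of 0.856 to 1.81 held 1. The list also held carriers of other substances, so it is not a single pathway. The urea transporter gene Slc14a1 was at 2970 against 5275 CPM (0.563, 0.550 to 0.577). Of 5 genes of fatty acid use and fasting metabolism, 4 were at least 2-fold higher. They included Igfbp1 (4.97) and the gluconeogenesis gene Pck1 (3.95). The fatty acid receptor gene Cd36 was lower, at 0.347. Slc10a1 is also a hepatocyte list gene, as are some of the fasting metabolism genes, so that their ratios follow in part from the choice of cells. The nuclear receptor gene Nr1h3, 1 of 2 further liver transcription factors, was at 2.5, and the other, Sox9, at 1.78 (1.62 to 1.95).

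In the E13.5 liver, a smaller section read on the larger panel, counts were low. Slc22a8 had 12 transcripts in 5285 cells, Ppargc1a 41 and Prox1 94, where the 40 negative control probes had at most 1 and the probes against genomic DNA at most 5. All 3 passed the highest control probe, as did 89.0% of the panel's genes. Panel, staining and software differed from the E14.5 section, so levels of the 2 ages cannot be compared: each gene had a listed probe coverage of 2 here and of 8 on the smaller panel.

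Prox1 was at 221 CPM in the 794 hepatocyte gene-high cells of the E13.5 liver, 71.9% of whose list transcripts were Afp, against 41.5 CPM in the other cells, a ratio of 5.32 (3.47 to 8.13). Ppargc1a was at 88.2 against 19.5 CPM (4.53, 2.30 to 8.77), from 18 and 23 transcripts. Slc22a8 was at 34.3 against 4.23 CPM (8.10, 2.21 to 32.4), from 7 and 5 transcripts. At least 2-fold higher was the state of 9.14% of the 3128 genes with 20 or more transcripts, among which Prox1 ranked 82 and Ppargc1a 112; Slc22a8 had too few to be ranked. At a score of 4 or more the Ppargc1a ratio was 2.67, with an interval of 0.692 to 7.44 that held 1. The cells scoring 2 to 4 then counted among the other cells. Ppargc1a was at 94.0 CPM in cells scoring 2 to 4 (16 transcripts) and at 90.3 at 4 or more (5 transcripts). Against the 311 macrophage gene-high cells, an alternative chosen after the values were seen, Prox1 was 9.38-fold higher (2.45 to 79.8, from 45 and 2 transcripts) and Ppargc1a had 18 transcripts against 1, a ratio of 7.50 (1.18 to 313). Prox1 and Ppargc1a shared 5 cells where 1.39 were expected over all cells (3.59, 1.16 to 8.37). Slc22a8 and Prox1 shared 2 where 0.38 were expected (5.26, 0.637 to 19.0), and Slc22a8 and Ppargc1a shared none where 0.179 were expected.

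Of further liver transcription factor genes on the larger panel with enough transcripts, 9 of 13 were at least 2-fold higher in the E13.5 hepatocyte gene-high cells and 1 at least 2-fold lower, with a median ratio of 4.24 against 0.745 over all genes. Hnf4a was at 887 against 202 CPM (4.38, 3.59 to 5.34) and Cebpa at 451 against 122 CPM (3.70, 2.81 to 4.84). Nr1h3, raised in the E14.5 class, was at 162 against 136 CPM here (1.19, 0.795 to 1.75), an interval that held 1. Nr1h4, the bile acid receptor gene, had 3 transcripts in the class and 50 outside (0.347, 0.0693 to 1.07). Of 3 transport genes with enough transcripts all were lower, 1 of them at least 2-fold, with a median ratio of 0.634 beside 0.745 over all genes. The share of all genes at least 2-fold lower was not computed. Abcb4 was at 221 against 323 CPM (0.684, 0.490 to 0.933) and Abcg2 at 417 against 657 (0.634, 0.501 to 0.794). The urea transporter gene Slc14a1 was at 118 against 316 (0.372, 0.236 to 0.563). Of 7 genes of fatty acid use and fasting metabolism with enough transcripts, 2 were at least 2-fold higher, Igfbp1 (8.37) and Acaa2 (2.69), and Cd36 was lower (0.340), with a median of 1.90.

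In day 8 bone marrow, Ppargc1a and Prox1 were highest, among classes of at least 500 cells, in skeletal muscle gene-high cells, led by the titin gene Ttn. Ppargc1a was at 1393 CPM there (1294 to 1499), with 723 of its 1344 transcripts in 2926 cells, and at 47.0 to 258 CPM in the other 8 classes. Prox1 was at 711 CPM in the muscle class (640 to 787), with 369 of 655 transcripts, and at 11.7 to 142 CPM in the other 8. In skeletal muscle gene-high cells 19.3% held Ppargc1a and 10.2% Prox1, and 69 held both where 65.6 were expected (1.051, 0.818 to 1.33). Macrophage gene-high cells held them in 1.06% and 0.378% of cells. Over squares of 50 µm Ppargc1a was most like the muscle genes Pgam2, Actn3 and Myoz2 (r = 0.69 for each), and Prox1 most like Myoz1, Pgam2 and Ttn (0.62 for each), all chosen after the values were seen. Negative control probes averaged 3.18 CPM each in the muscle class and 0.817 to 3.64 CPM over the classes of at least 500 cells. A smaller class of 153 cells, 84.0% of whose fat list transcripts were Car3, was at 1120 CPM of Ppargc1a (766 to 1581, from 32 transcripts) and 420 CPM of Prox1 (217 to 733, from 12).

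Prox1 reached its highest CPM in day 8 marrow in 32 cells that scored highest on the list of Lyve1 and Mmrn1, genes of lymphatic vessels. These cells held 41 Prox1 transcripts (5102 CPM, 3661 to 6921) and no Ppargc1a transcript (interval up to 459 CPM). A pair of genes is too few to name a cell type. Among blood endothelial gene-high cells of the marrow, those with Prox1 had 1576 CPM of Lyve1 and 1996 of Mmrn1, and those without had 177 and 1517, a comparison chosen after the values were seen. Only 49 of these marrow cells held Prox1, and values of this comparison have no interval. In the E14.5 liver the same comparison gave 10423 against 10526 CPM for Lyve1 and 985 against 1037 for Mmrn1.

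Over the marrow classes of at least 500 cells, Abcb11 ranged from 7.71 to 38.8 CPM, Slc22a8 from 2.11 to 45.3 and Slc27a2 from 23.1 to 97.1. Smaller classes reached higher values from few transcripts, such as Slc27a2 at 498 CPM from 4 transcripts in the 32 cells of the Lyve1 and Mmrn1 list. Among the larger classes all 3 were highest in cells scoring on the hepatocyte list, in which Hp, also a gene of neutrophil precursors, made up 48.0% of list transcripts, with 6, 7 and 15 transcripts behind the values; in cells of no class Slc22a8 was at 45.4 CPM.

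In the 89-week marrow the 3 genes on the larger panel were near background. Slc22a8 had 28 transcripts in 143810 cells, Prox1 31 and Ppargc1a 57, where the highest negative control probe had 18 and the highest probe against genomic DNA 90. All 3 passed the former, as did 97.8% of panel genes, and none passed the latter. In classes of at least 500 cells none of the 3 rose above 15.5 CPM, a value for Slc22a8 in stromal gene-high cells that equalled the highest control probe in the same cells.

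The spleens lay on 1 slide, 1 section each. Ppargc1a was at 392 CPM in untreated spleen (4060 transcripts) and at 82.9 in PHZ-treated spleen (948), a ratio of 0.211 (0.197 to 0.227). Prox1 was at 303 CPM (3136 transcripts) and 69.3 (792), a ratio of 0.229 (0.211 to 0.247). At least 2-fold lower was the state of 28.1% of the 477 genes, whose median ratio was 0.728, and the 2 genes ranked 30 and 35 from the lowest. Slc27a2 was at 48.3 and 68.4 CPM, a ratio of 1.42 (1.26 to 1.59), and Slc22a8 at 22.0 and 23.8 CPM, 1.08 (0.903 to 1.29). None of the 5 genes was 2-fold higher in PHZ-treated spleen, as 12.8% of genes were. Abcb11 was at 24.9 and 20.4 CPM, a ratio of 0.818 (0.682 to 0.980) that turned to 1.03 when counts were taken per cell. Mouse, section and treatment cannot be told apart with 1 spleen each.

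In untreated spleen Prox1 was concentrated in blood endothelial gene-high cells, led by Plvap. They held 1920 of its 3136 transcripts, at 2449 CPM (2340 to 2561), where the other classes of at least 500 cells lay at 56.5 to 290 CPM. The 65 cells that scored highest on the list of Lyve1 and Mmrn1 were at 2088 CPM (1463 to 2891), from 36 transcripts. Of the 7161 blood endothelial gene-high cells 21.1% held Prox1, against 0.651% of macrophage gene-high cells. In PHZ-treated spleen the blood endothelial class was led by Eng (33.2% of list transcripts, where Plvap had 22.8% in untreated spleen). The class was at 533 CPM of Prox1 (482 to 589), from 394 transcripts in 5333 cells. Of its cells 6.79% held the gene, at a median depth of 123 transcripts against 99. The 97 cells of the Lyve1 and Mmrn1 list were at 1444 CPM (915 to 2167) there, from 23 transcripts. The ratio within the endothelial class, whose leading gene differed between the spleens, was 0.218 (0.195 to 0.243), beside 33.3% of genes at least 2-fold lower in it and a median of 0.717. Prox1 was lower in PHZ-treated spleen in all 9 classes of at least 200 cells in each spleen, cells of no class aside, with 8 intervals below 1. The share of panel genes lower in as many classes was not computed. The smallest, of the NK cell list, had 244 cells and 0 Prox1 transcripts in PHZ-treated spleen.

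The Prox1-positive endothelial cells of untreated spleen were at 4.93 CPM of Lyve1, against 53.3 in Prox1-negative cells of the class, and at 705 against 537 CPM of Mmrn1. In PHZ-treated spleen Lyve1 was at 369 against 191 CPM and Mmrn1 at 123 against 208. The 4.93 CPM of Lyve1 lay below the highest control probe of the class in untreated spleen, 11.5 CPM. These values have no interval, so whether the order differs between the spleens cannot be told. They were chosen after other values were seen. Over squares of 50 µm, Prox1 followed AU021092 (r = 0.62) and the endothelial genes Tie1 (0.60) and Plvap (0.59), chosen after the values were seen. With Ppargc1a it shared 19 cells of the class where 32.6 were expected, a ratio of 0.582 (0.350 to 0.909).

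Ppargc1a in untreated spleen was spread more widely. Cells of no class held 2301 of its 4060 transcripts at 610 CPM (586 to 636), and the classes of at least 500 cells lay at 178 to 399 CPM, lowest in macrophage gene-high cells. It was found in 4.57% of cells of no class. The gene most like it over squares, chosen after the values were seen, was Cxcr5, a chemokine receptor of B cells and follicular T cells, in untreated spleen (r = 0.47) and in PHZ-treated spleen (0.58). Cd164 (0.44) and Ly6a (0.43) followed in untreated spleen, and the regulatory T cell genes Foxp3 (0.52) and Il2ra (0.50) in PHZ-treated spleen. B cells could not be classed here, since the smaller panel holds 1 gene of their list.

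In PHZ-treated spleen Ppargc1a in cells of no class was at 70.0 CPM (63.3 to 77.2), a ratio of 0.115 (0.103 to 0.128), beside 47.8% of genes at least 2-fold lower there and a median of 0.513. Ppargc1a was lower in 8 of the 9 classes of at least 200 cells in each spleen, all 8 with intervals below 1. How many panel genes were lower in as many classes was not computed. The exception was the T cell gene-high class, at 293 CPM in untreated and 329 in PHZ-treated spleen, a ratio of 1.12 (0.932 to 1.35). In that class 46.4% of genes were at least 2-fold higher in PHZ-treated spleen and the median gene was at 1.88. Abcb11 (2.83), Slc22a8 (2.26) and Slc27a2 (4.28) were also higher in it, from 46, 44 and 92 transcripts, while the mean control probe was at 1.79 CPM in PHZ-treated and 1.76 in untreated spleen. For Slc27a2 this was not particular to the T cell class. Its interval lay above 1 in 5 of the 9 classes, and it was lower in 2, with no interval below 1. A share of panel genes with as many such intervals was not computed. In cells of no class, which are not among the 9, Slc27a2 was at a ratio of 0.888 (0.746 to 1.06).

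**Figure D5:**
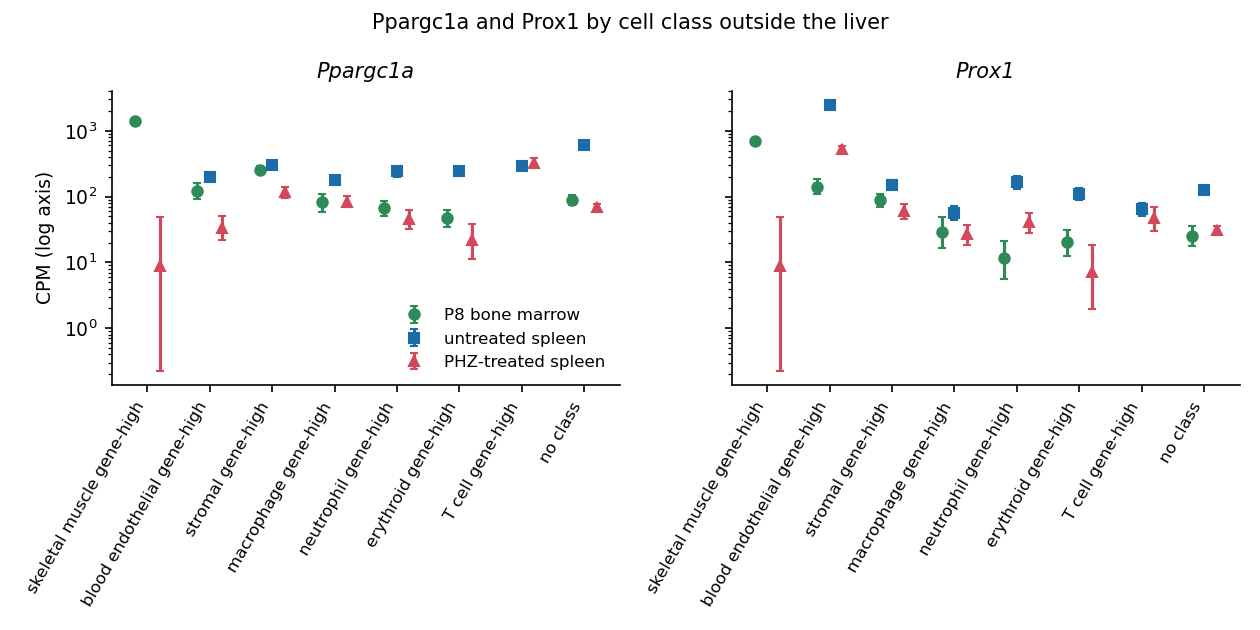
CPM of Ppargc1a (left) and Prox1 (right), on a log axis, by cell class of at least 500 cells in day 8 marrow, untreated spleen and PHZ-treated spleen, with exact 95% Poisson intervals; the hepatocyte, NK cell and cartilage lists and lists of fewer than 3 genes are not drawn. Both genes peak in skeletal muscle gene-high cells of the marrow (1393 and 711 CPM), Prox1 peaks in blood endothelial gene-high cells of untreated spleen (2449 CPM), and the muscle list cells of PHZ-treated spleen, led by Mylk3, hold 1 transcript of each gene.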

How the data were processed

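Each of the 6 sections was 1 sample and 1 group, taken from the labels. The deposited counts are raw transcripts per gene and segmented cell, which the authors made with the instrument's software (xenium 1.7.1.0 on the smaller panel, 3.1.0.4 on the larger, per the file headers); cells were outlined by widening nuclei on the former and with boundary stains on the latter. The deposited quality score of each decoded transcript was read in the 4 sections of the smaller panel, where transcripts in cells with a score of at least 20 gave the counts of 541 of 541 features. The genome build used for probe design is not given in the sources used here. Outlines of cells and nuclei were not used.

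Cells with at least 5 genes were kept. CPM is a gene's transcripts per 1000000 gene transcripts in the same cells. A cell entered the class of the list on which it scored highest, with a score of at least 2 and at least 3 transcripts from at least 2 list genes; the score has 1 added above and below. Intervals are exact 95% Poisson or binomial intervals and cover counting error only. Expected co-detection was summed over 10 strata of depth. Co-detection intervals are Poisson intervals of the shared count over the expected number. They do not hold fixed how many cells carry each gene and are too wide for common genes. Besides the 5 genes, the text names for each the 3 genes of highest correlation in the E14.5 liver, over squares with at least 1000 and genes with at least 500 transcripts, and up to 4 genes of each list; leading list genes of a class are also named, and other names were chosen after their values were seen. The genes and lists were chosen with earlier results of these data known. The ratio with its interval and the co-detection count were tested on simulated Poisson counts, and the other steps were not. Alternatives were other strata, cells and score limits, transcripts over the nucleus, counts per cell and a quality score of at least 30. All 5 genes were matched to RefSeq promoters. Python 3.11.15, numpy 2.4.6, scipy 1.17.1, pandas 2.3.3, pyarrow 21.0.0 and matplotlib 3.10.9 were used.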

Additional observations from a re-analysis of the deposited data

Results flagged for a closer look

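Transcripts that lay outside every segmented cell entered none of the comparisons, and some genes exceeded there the highest negative control probe outside cells. In the E14.5 liver, where that probe had 11 transcripts, Abcb11 had 183 outside cells, Slc22a8 51, Slc27a2 2131, Ppargc1a 122 and Prox1 310. In day 8 marrow, where the probe had 13, Slc27a2 had 46, Ppargc1a 40 and Prox1 18. Prox1 had 11 in untreated spleen and 17 in PHZ-treated spleen, where the probe had 6 in each. Being above that probe was common, with 308 of 477 genes in the E14.5 liver, 332 in day 8 marrow, 278 in untreated and 323 in PHZ-treated spleen.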

How the results depend on the processing

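The median co-detection ratio over the 10 pairs in E14.5 hepatocyte gene-high cells, 1.07 within depth deciles, was 1.19 without strata, 1.02 within deciles of the hepatocyte list count and 2.07 over all cells. The PHZ-treated to untreated ratio of Abcb11, 0.818, turned to 1.03 for counts per cell, 1.06 for transcripts over the nucleus and 1.01 at a quality score of at least 30. Ppargc1a stayed at 0.219 to 0.267 and Prox1 at 0.169 to 0.289 under the 4 alternatives run for the spleens. Of all values under alternatives, 56 stayed within the interval of the value or, for counts of genes, within 1.5 times, 30 moved by more and 3 turned direction. Against E13.5 macrophage gene-high cells Slc22a8 gave no ratio, since those cells held none of its transcripts. No paired analysis was possible because each group was 1 section. Section, mouse and condition cannot be told apart. Counts of 12 to 94 in the E13.5 liver and 28 to 57 in the 89-week marrow limit what those sections show, and depth sets the share of cells with a transcript.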
